A study of Mus musculus with 18 samples.

Results

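The long-tail fraction of cortex and striatum was compared between CPEB4 GT/+ mice, which carry 1 GT allele of Cpeb4, and WT mice. The comparison took the ELUTED arrays of 2 CPEB4 GT/+ and 2 WT animals, 4 of the 18 arrays of the series, and covered 12822 of the 17097 genes that carry a symbol there, those above a floor on mean signal. All animals were 6 weeks old, and cortex and striatum were dissected together. Each animal gave total RNA (INPUT) and a pair of poly(U) agarose fractions. The WASH fraction came off the column at 25% formamide and favours short poly(A) tails, and the ELUTED fraction needed 90% formamide and favours long ones. The 2 CPEB4 KO ELUTED arrays entered the fit only to estimate the spread between animals, and their values stand beside the others where named. Strain, sex and the position of the GT insertion are not given in the sources used here.

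CPEB4 belongs to the cytoplasmic polyadenylation element binding proteins. These proteins bind U-rich elements in the 3′ untranslated regions of mRNAs and recruit poly(A) polymerases or deadenylases, so that tails are lengthened or shortened in the cytoplasm. In neurons such tail changes are known to act on stored mRNAs of synaptic and plasticity genes, and a long tail generally goes with translation and stability. An ELUTED value depends on both the amount of an mRNA and the share of its molecules with long tails, so INPUT values are given beside it.

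Values below are log2 levels of one probe set per gene, and differences are CPEB4 GT/+ minus WT, with the standard error (SE) of limma's moderated fit. No gene passed the test: 0 of 12822 genes (0.0% higher and 0.0% lower) had an adjusted p under 0.05 in limma, and the smallest adjusted p was 1.00. At an unadjusted p under 0.05 there were 114 genes (0.889%), 66 of them higher (0.515%) and 48 lower (0.374%), where chance alone gives about 641. A looser description counts genes whose groups did not overlap, that is, both CPEB4 GT/+ arrays lay above or below both WT arrays. By that count 1699 genes were higher (13.3%) and 1124 lower (8.77%). With quantile normalization the split was 1410 higher and 1712 lower, and after aligning the arrays on their hybridisation controls, which puts the median of all genes at 0.12, it was 3104 higher and 63 lower.

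Most differences were small. Over all genes tested the median difference was −0.01, the SD across genes was 0.163, and 95% of the differences lay between −0.377 and 0.276. Differences of at least 0.58 in size, about 1.49-fold, were found for 51 genes, 2 higher and 49 lower. Of these, 2 higher genes (0.0156%) and 18 lower genes (0.14%) had no overlap between the groups.

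The 2 CPEB4 GT/+ ELUTED arrays stood apart from each other. Across genes, which are not independent replicates, they correlated at r = 0.966, against 0.994 for the 2 WT arrays, while the INPUT arrays of the same CPEB4 GT/+ animals correlated at 0.994 and their WASH arrays at 0.993. The SD across genes of replicate 1 minus replicate 2 was 0.422 in CPEB4 GT/+ ELUTED and 0.171 in WT ELUTED. They often lay on opposite sides of WT: replicate 1 was above both WT arrays and replicate 2 below both for 3671 (28.6%), and the reverse held for 1989 (15.5%). Replicate 1 tended to be above WT and replicate 2 below it among the more abundant genes, with median deviations of 0.14 and −0.17 over the 25% of genes with the highest level. Technical readouts differed as well. Hybridisation controls averaged 10.4 in replicate 1 and 10.81 in replicate 2, against 10.73 in both WT arrays. The 3′ minus 5′ difference of Actb was −0.306 and −0.465, against −0.405 and −0.404 in WT. That of Gapdh had the reverse order, with −0.053 in replicate 1 and 0.062 in replicate 2, against −0.039 and −0.033 in WT. Their part in the results was not tested.

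Cpeb4 itself was lower in the CPEB4 GT/+ long-tail fraction. Its ELUTED levels were 7.44 and 6.50 in CPEB4 GT/+, against 7.67 and 7.86 in WT and 5.94 and 5.79 in CPEB4 KO. Both heterozygotes lay below both WT animals and above both KO animals. The difference from WT was −0.80 (SE 0.28, n = 2 each), or 57.5% of WT on the linear scale, with an adjusted p of 1.00 in limma. The other 2 probe sets of the gene gave −0.46 and −0.66. In INPUT the levels were 7.31 and 7.0 in CPEB4 GT/+, against 8.15 and 7.62 in WT, a difference of −0.73, and in WASH the difference was −0.44. Once the INPUT level of each animal was subtracted, the difference between the genotypes was −0.07 (SE 0.30). Whether these probe sets lie within the part of the gene that the GT allele alters is not given, so the values check the labels only as far as the transcript is lowered.

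The other genes singled out by the naming rule were 2 higher and 11 lower ones. They had the smallest unadjusted p in limma among genes without overlap and with a difference of at least 0.58. Cops7b, a subunit of the COP9 signalosome, had ELUTED levels of 10.09 and 9.95 in CPEB4 GT/+, against 9.25 and 9.46 in WT. The groups were well apart, and the difference was 0.66 (SE 0.15). At this probe set it was also higher in INPUT, by 0.44, and in WASH, by 0.35. The other probe set of the gene gave 0.34 in ELUTED, −0.01 in INPUT and 0.10 in WASH. Syndig1l, a transmembrane protein gene of striatal neurons, had 9.79 and 9.76 in CPEB4 GT/+ and 8.91 and 9.46 in WT, a difference of 0.59 (SE 0.19). Here INPUT went the other way, with 9.14 and 8.72 in CPEB4 GT/+ and 8.98 and 9.44 in WT, a difference of −0.28. The second Syndig1l probe set gave 0.30 in ELUTED and −0.01 in INPUT.

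**Figure D1:**
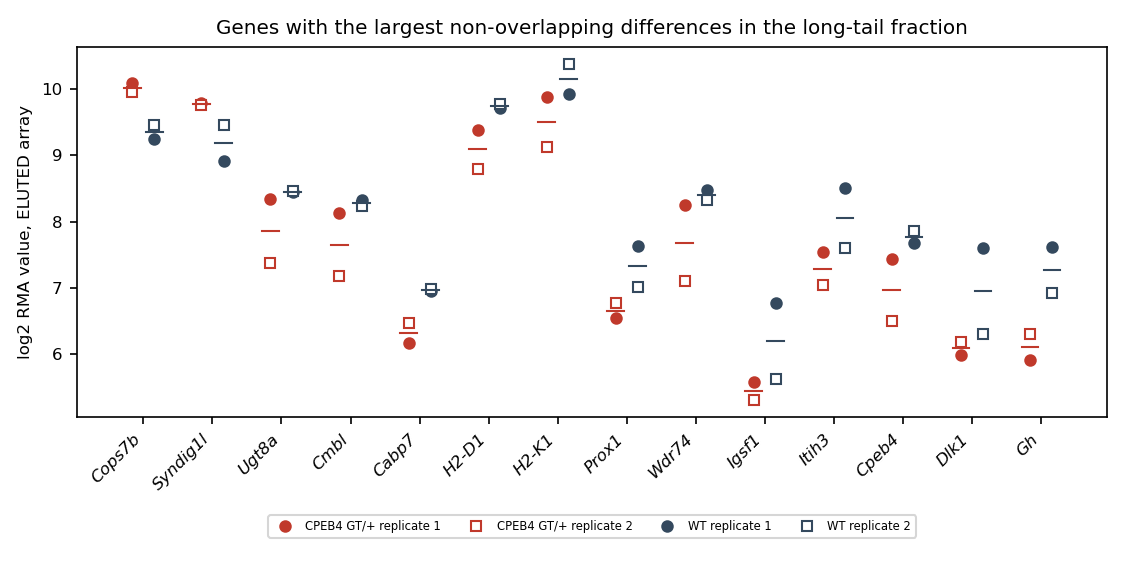
Log2 RMA levels on the ELUTED arrays of 14 genes whose groups do not overlap and differ by at least 0.58, taken by smallest unadjusted p in limma (red, CPEB4 GT/+; dark blue, WT; filled circles, replicate 1; open squares, replicate 2; horizontal bars, means of 2 animals). Cops7b and Syndig1l lie higher in both CPEB4 GT/+ animals, while the WT replicates of Dlk1, Igsf1 and Itih3 lie far apart.

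Several of the lower genes are ones expressed outside cortex and striatum. Gh, the pituitary growth hormone, had the largest difference of all genes tested. Its ELUTED levels were 5.90 and 6.30 in CPEB4 GT/+, against 7.61 and 6.92 in WT, a difference of −1.16 (SE 0.26), or 44.7% of WT on the linear scale. The difference was −1.09 in INPUT and −1.58 in WASH, and CPEB4 KO against the same WT animals gave −1.17 in ELUTED. By its name this probe set can cross-hybridise, and so can those that gave −0.96 and −0.84. The probe set without that mark in its name gave −0.18 in ELUTED and −0.17 in INPUT.

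Dlk1, which encodes a Notch ligand-like transmembrane protein of hypothalamic and pituitary cells, had 5.99 and 6.18 in CPEB4 GT/+ and 7.60 and 6.30 in WT. Igsf1, a pituitary and hypothalamic membrane glycoprotein gene, had 5.58 and 5.30 in CPEB4 GT/+ and 6.77 and 5.62 in WT. In both genes WT replicate 1 was high, while WT replicate 2 lay close to the CPEB4 GT/+ animals. Pmch, the precursor of melanin-concentrating hormone in the lateral hypothalamus, showed the same layout more sharply in INPUT, with 5.25 and 5.30 in CPEB4 GT/+ and 9.23 and 5.16 in WT. Its ELUTED levels were 5.18 and 5.21 in CPEB4 GT/+ and 6.70 and 5.32 in WT. Prox1, a homeodomain factor abundant in dentate granule cells, had 6.54 and 6.77 in CPEB4 GT/+ and 7.63 and 7.02 in WT, a difference of −0.67 (SE 0.24), against −0.16 in INPUT.

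Of the 21 tested genes of other brain regions and the pituitary, 3 were higher (14.3%) and 5 lower (23.8%) without overlap, beside 13.3% and 8.77% of all genes. The median difference was −0.04, or 0.08 with aligned arrays, where that of all genes was 0.12. The median deviations of the list were −0.21 and −0.02 in CPEB4 GT/+ replicates 1 and 2, and 0.16 and −0.16 in WT replicates 1 and 2. The WT animals thus differed from each other on this list by more than the groups did. Ttr, the transthyretin gene of the choroid plexus, varied as widely within genotypes, with 7.43 and 10.61 in CPEB4 GT/+ and 10.95 and 8.35 in WT. The part of such tissue in the differences of Gh, Dlk1, Igsf1, Pmch and Prox1 was not tested. Markers of the labelled tissue were well above the floor of 5.52 in all 4 arrays. Slc17a7, for cortical excitatory neurons, had 11.24 and 11.36 in CPEB4 GT/+ and 10.74 and 11.12 in WT. Ppp1r1b, for striatal projection neurons, had 9.71 and 9.41 in CPEB4 GT/+ and 9.46 and 9.39 in WT.

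The classical MHC class I genes H2-K1 and H2-D1, which present peptides to T cells and also act at synapses, were both lower. H2-D1 had 9.38 and 8.80 in CPEB4 GT/+ and 9.71 and 9.77 in WT, a difference of −0.65 (SE 0.20), while its other probe sets above the floor gave −0.08 and −0.13. H2-K1 had 9.88 and 9.12 in CPEB4 GT/+ and 9.93 and 10.38 in WT, a difference of −0.65 (SE 0.29), with −0.31, −0.40 and −0.03 at its other probe sets. For H2-K1 the groups barely separated, since replicate 1 of both genotypes had nearly the same level.

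In INPUT the differences were −0.36 for H2-D1 and −0.43 for H2-K1, and in WASH −0.27 for H2-D1. The 2 genes are near-identical copies in much of their sequence, and their probe sets may share signal. Their promoters are shown because the genes lay low together. In the RefSeq windows of 300 bases around the start site (250 before it and 50 after it, GRCm38.p6), H2-K1 lies at chr17:34000298-34000597 on the minus strand and H2-D1 at chr17:35262844-35263143 on the plus strand. Capitals mark the matches to GGGANTCCC, a kappa B-like motif, and to GAANNGAAA, an interferon-response-like motif that is read here on the other strand.

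H2-K1: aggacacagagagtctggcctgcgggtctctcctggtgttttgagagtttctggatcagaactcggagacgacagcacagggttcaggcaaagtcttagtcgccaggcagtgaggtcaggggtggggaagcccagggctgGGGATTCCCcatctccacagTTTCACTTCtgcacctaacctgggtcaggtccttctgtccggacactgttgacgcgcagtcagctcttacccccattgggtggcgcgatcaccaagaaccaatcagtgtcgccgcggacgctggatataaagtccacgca

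H2-D1: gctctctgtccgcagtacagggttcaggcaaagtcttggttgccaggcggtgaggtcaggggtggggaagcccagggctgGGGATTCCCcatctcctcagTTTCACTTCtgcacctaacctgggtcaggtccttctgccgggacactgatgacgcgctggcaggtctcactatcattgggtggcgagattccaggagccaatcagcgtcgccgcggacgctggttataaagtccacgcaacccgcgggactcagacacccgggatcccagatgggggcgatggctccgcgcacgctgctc

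Both windows carry the motifs in the same order, starting at −110 and −90 from the start site in H2-K1 and at −170 and −150 in H2-D1. For H2-K1 2 windows are listed, and the one with the highest end coordinate is shown. The H2-K1 positions, and their offset from those in H2-D1, depend on that choice. The best local alignment of the windows had 206 identical bases in 228 columns (90.4%). Searched on both strands, GGGANTCCC is found in 252 of 32851 RefSeq windows of this length (0.767%), and GAANNGAAA in 2469 (7.52%). A match describes the sequence only. A list of antigen-presentation genes was drawn up after the values were seen and holds the pair that prompted it. Of 7 tested, 4 were lower without overlap (57.1%, against 8.77% of all genes) and 0 higher, with a median of −0.31. With aligned arrays 0 were lower and 1 higher, beside 0.491% and 24.2% of all genes, at a median of −0.19. With the mean of probe sets the median was −0.12. Besides the classical pair the lower ones were Psmb10, an immunoproteasome subunit, at −0.35, and H2-T23, a nonclassical class I gene, at −0.31.

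The remaining lower genes were Cabp7, Itih3, Cmbl, Wdr74 and Ugt8a. Cabp7, which encodes a neuronal calcium-binding protein, had 6.16 and 6.47 in CPEB4 GT/+ and 6.95 and 6.98 in WT. Its arrays separated clearly, with a difference of −0.65 (SE 0.20). Itih3, a heavy chain of the inter-alpha-trypsin inhibitor family, had 7.53 and 7.05 in CPEB4 GT/+ and 8.51 and 7.60 in WT, where the WT animals again lay far apart. Cmbl, a hydrolase gene, and Wdr74, a ribosome biogenesis factor gene, differed by −0.62 and −0.73. In both, replicate 2 made most of the gap, with 8.13 and 7.17 in CPEB4 GT/+ against 8.32 and 8.23 in WT for Cmbl.

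**Figure D2:**
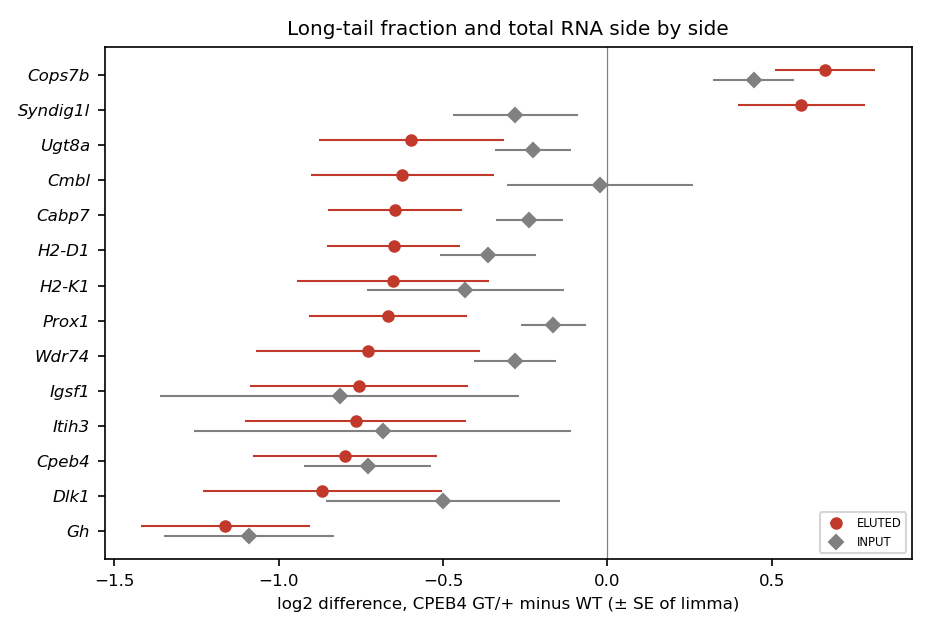
Log2 differences of CPEB4 GT/+ minus WT for the same 14 genes in ELUTED (red circles) and INPUT (grey diamonds), with bars of 1 SE of limma (n = 2 animals a group). Gh and Cpeb4 differ about as much in both, Syndig1l differs in opposite directions, and Cmbl is near 0 in INPUT.

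Genes of the tail machinery were taken next. Of 40 tested genes of cytoplasmic polyadenylation and deadenylation, 3 were higher and 6 lower without overlap, beside 13.3% and 8.77% of all genes, and the median difference was −0.03. With aligned arrays 5 were higher (12.5%) and 1 lower (2.5%), beside 24.2% and 0.491% of all genes. The median was then 0.09, against 0.12 over all genes, and without CPEB4 GT/+ replicate 1 it was −0.17. The CPEB4 paralogs Cpeb1, Cpeb2 and Cpeb3 differed by −0.12, 0.05 and 0.05, and all 3 overlapped between the groups at the probe sets used. A second Cpeb3 probe set had 8.49 and 8.37 in CPEB4 GT/+ and 8.26 and 8.00 in WT, a difference of 0.30 without overlap. Apart from Cpeb4 the largest difference without overlap was that of Cpsf4, a subunit of the cleavage and polyadenylation factor, at −0.21 with levels of 7.98 and 8.22 in CPEB4 GT/+ and 8.31 in both WT animals. Tent2, the cytoplasmic poly(A) polymerase also known as GLD2, was at −0.05, and Parn, a deadenylase, at −0.02.

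Autism risk genes included 10 of 55 higher (18.2%) and 1 lower without overlap, with a median of 0.08. That share of higher genes is near the 13.3% of all genes. The 2 largest were Setd5, a chromatin regulator, with 8.45 and 8.05 in CPEB4 GT/+ and 8.01 and 7.76 in WT, and Foxp1, a forkhead transcription factor, with 11.46 and 11.66 in CPEB4 GT/+ and 11.08 and 11.35 in WT. Their differences were 0.37 (SE 0.18) and 0.34 (SE 0.17), against 0.01 and 0.08 in INPUT. A second Setd5 probe set gave −0.18 in ELUTED, while 6 others of Foxp1 gave 0.18 to 0.44. Dip2a was the lower one, at −0.27. Without CPEB4 GT/+ replicate 1 the median of the list was −0.00, and with aligned arrays it was 0.21. The medians of all genes were then −0.03 and 0.12.

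Synaptic genes were on the higher side where the groups did not overlap. Of 27 tested presynaptic genes, 10 were higher (37.0%) and 0 lower, with a median of 0.13. Of 29 tested postsynaptic genes, 9 were higher (31.0%) and 0 lower, with a median of 0.09. Over all genes 13.3% were higher and 8.77% lower, with a median of −0.01. Presynaptic members included Slc17a7, the vesicular glutamate transporter, at 0.37 (SE 0.17), and Napb, a SNAP protein of vesicle fusion, at 0.33 (SE 0.17). Syt1, the calcium sensor of release, had 11.77 and 11.84 in CPEB4 GT/+ and 11.57 and 11.62 in WT, and Syn1, a synapsin of the vesicle pool, had 11.60 and 11.54 in CPEB4 GT/+ and 11.38 and 11.37 in WT.

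Among postsynaptic genes, Dlgap3, a scaffold of the postsynaptic density, had 9.14 and 9.49 in CPEB4 GT/+ and 8.84 and 9.0 in WT. Nlgn1, a cell-adhesion partner of neurexins, had 7.55 and 7.82 in CPEB4 GT/+ and 7.33 and 7.29 in WT, with −0.08 in INPUT. The list's largest difference, 0.56 for the scaffold Shank1, came with overlap, since replicate 1 was at 9.08 and replicate 2 at 10.50 in CPEB4 GT/+, against 9.19 and 9.27 in WT. In INPUT the medians were 0.04 for presynaptic and 0.02 for postsynaptic genes. The presynaptic median rested on replicate 1: the 2 CPEB4 GT/+ animals deviated by 0.14 and −0.04, and without replicate 1 the median was −0.04. With quantile normalization 7 presynaptic genes were higher and 3 lower, and 7 postsynaptic genes were higher and 1 lower. Over all genes 1410 of 12822 were higher and 1712 lower under that scaling. With aligned arrays 7 presynaptic genes (25.9%) and 10 postsynaptic genes (34.5%) were higher and 0 lower, beside 24.2% and 0.491% of all genes. The presynaptic share was then near that of all genes. The medians of the lists were 0.26 and 0.21, against 0.12 over all genes.

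Neuron markers were mostly higher in CPEB4 GT/+ replicate 1 than in replicate 2, for 19 of 28 cortical excitatory and 17 of 23 striatal genes. Over all genes tested that order was found for 7333 of 12822. It was reversed for the list members Slc17a7, Cux1, Foxp1 and Rgs9, and it held for Ppp1r1b and Syndig1l. Of 28 cortical excitatory genes, 7 were higher (25.0%, against 13.3% of all genes) and 0 lower, and the median deviations of the replicates were 0.23 and −0.01. Cux1, an upper-layer transcription factor, was at 0.40 (SE 0.17). Of 23 striatal projection neuron genes, 7 were higher (30.4%) and 1 lower (4.35%, against 8.77% of all genes), with median deviations of 0.28 and −0.09. With aligned arrays 7 cortical genes (25.0%) and 6 striatal genes (26.1%) were higher, near the 24.2% of all genes. The lists were also on the higher side outside the long-tail fraction: the median difference was 0.07 in INPUT and 0.13 in WASH for cortical genes, and 0.08 and 0.15 for striatal genes, whose ELUTED median was 0.04. Rgs9, a striatal regulator of G protein signalling, had 10.24 and 10.41 in CPEB4 GT/+ and 9.89 and 9.94 in WT, a difference of 0.41 (SE 0.14) that stood at 0.02 in INPUT. Rgs9 is 1 of the few list members with an unadjusted p under 0.05, and it too had an adjusted p of 1.00 in limma. GABA interneuron genes showed 1 higher and 1 lower of 21 (4.76% each), or 3 higher and 1 lower with centred arrays.

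Oligodendrocyte genes were lower in both CPEB4 GT/+ animals for most members. Of 26 tested, 15 were lower without overlap (57.7%), against 8.77% of all genes, 1 was higher, and 25 had a difference below 0. The median was −0.30, or 81.5% of WT on the linear scale. Both CPEB4 GT/+ animals lay below WT, by −0.09 in replicate 1 and −0.48 in replicate 2. The list was also lower in the other fractions of the same animals, by −0.18 and −0.23 in INPUT and by −0.16 and −0.20 in WASH. The ELUTED value of replicate 1 was therefore nearer to WT than its INPUT, and that of replicate 2 farther from it. In such bulk tissue, fewer cells of a type and less RNA per cell cannot be told apart.

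Ugt8a, the galactosyltransferase of myelin galactolipids, had 8.33 and 7.37 in CPEB4 GT/+ and 8.44 and 8.45 in WT, a difference of −0.60 (SE 0.28). Gjc3, a connexin of myelinating cells, had 8.61 and 7.93 in CPEB4 GT/+ and 8.93 and 8.69 in WT, a difference of −0.54 (SE 0.23). In both genes replicate 2 was the lower animal by far. Car2, Septin4 and Trf, expressed in mature oligodendrocytes, differed by −0.50, −0.48 and −0.44.

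Mbp, myelin basic protein, differed by less, with 11.75 and 11.74 in CPEB4 GT/+ and 11.85 and 11.81 in WT. Sox10, a lineage transcription factor, was the 1 higher member, at 0.05, with −0.32 in INPUT. Oligodendrocyte precursor genes had 3 of 11 higher (27.3%, against 13.3% of all genes) and 0 lower, a median of 0.01, and Bmp4, a precursor-stage signal, at 0.32. With quantile normalization 1 precursor gene was higher and 2 were lower, at a median of −0.01. With quantile normalization 23 oligodendrocyte genes were lower and 0 higher, and with aligned arrays 1 was lower at a median of −0.17, which is −0.29 relative to all genes. Without CPEB4 GT/+ replicate 2 the median was −0.09.

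**Figure D3:**
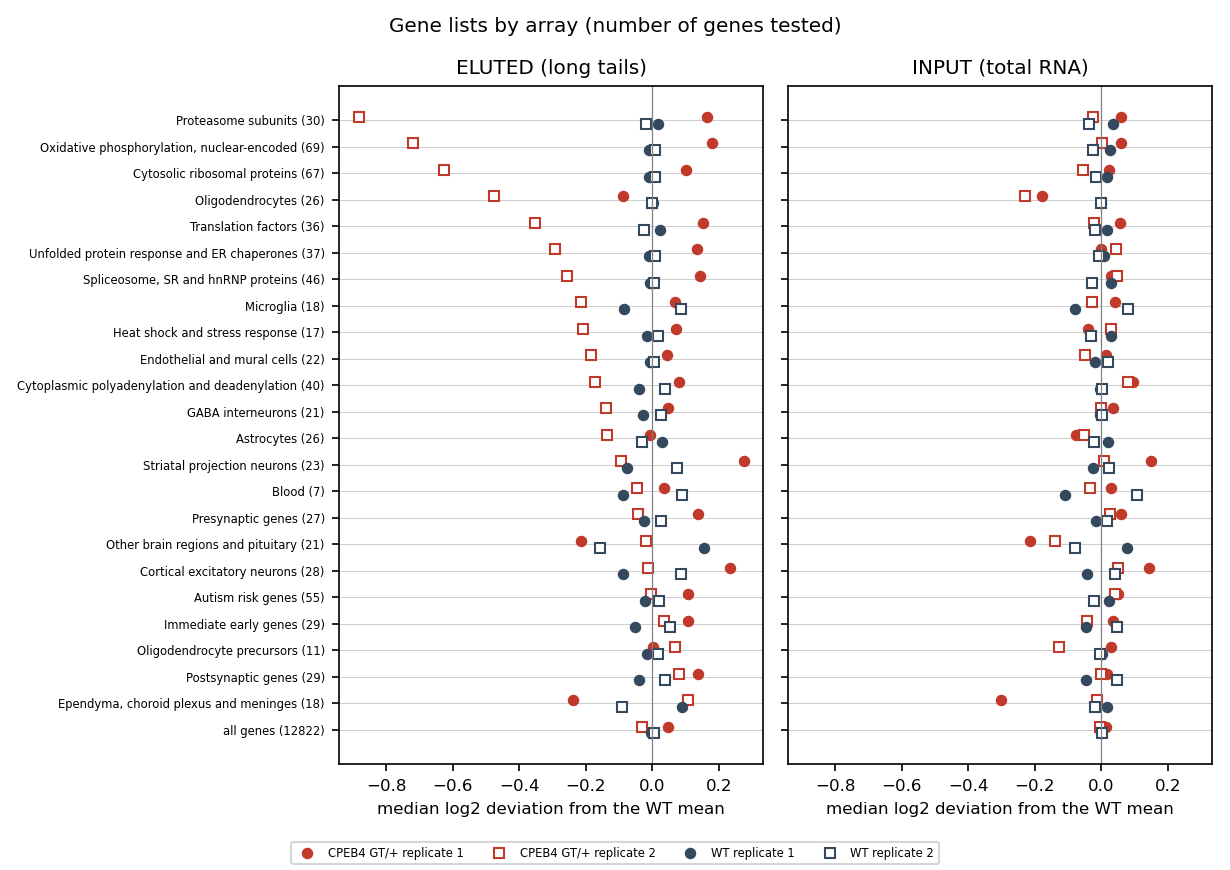
Median log2 deviation from the WT mean over the tested genes of each list, for ELUTED (left) and INPUT (right), with the number of genes tested in brackets (red, CPEB4 GT/+; dark blue, WT; filled circles, replicate 1; open squares, replicate 2). In ELUTED the CPEB4 GT/+ replicates lie on opposite sides of WT for proteasome, oxidative phosphorylation and ribosomal genes, and on the same side for oligodendrocyte genes, which are also low in INPUT.

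Housekeeping complexes divided the CPEB4 GT/+ animals rather than the genotypes. The 30 tested proteasome subunits, the parts of the protease that degrades ubiquitinated proteins, deviated from WT by medians of 0.16 in replicate 1 and −0.88 in replicate 2. On the linear scale these medians are 112% and 54.2% of WT. All 30 were higher in replicate 1 than in replicate 2, against 7333 of 12822 over all genes, and 0 separated the groups. Psmb7, a catalytic subunit, was the extreme, with 8.91 and 6.08 in CPEB4 GT/+ and 8.56 and 8.51 in WT. Psma3, an alpha-ring subunit, had 10.70 and 9.73 in CPEB4 GT/+ and 10.48 and 10.50 in WT.

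The 69 nuclear-encoded subunits of oxidative phosphorylation deviated by 0.18 and −0.72, and all 69 were higher in replicate 1. Ndufc2, a complex I subunit, had 9.19 and 7.72 in CPEB4 GT/+ and 9.04 and 9.34 in WT. Uqcrb, a complex III subunit, had 8.33 and 6.46 in CPEB4 GT/+ and 7.67 and 8.09 in WT. These and the other housekeeping genes named without a group separation were picked after their values were seen.

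The 67 cytosolic ribosomal protein genes deviated by 0.10 and −0.63, with 66 higher in replicate 1. Rpl12 had 8.94 and 7.36 in CPEB4 GT/+ and 8.66 and 8.80 in WT. Without overlap, 8 were lower (11.9%, against 8.77% of all genes) and 1 was higher (1.49%, against 13.3%). Rpl26 was the largest of these, with 9.96 and 9.01 in CPEB4 GT/+ and 10.08 and 10.05 in WT, a difference of −0.58 (SE 0.31) against 0.03 in INPUT. Fau, a ubiquitin-like fusion with a small-subunit protein, was at −0.42.

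In total RNA of the same animals the layout was far smaller. In INPUT the CPEB4 GT/+ replicates deviated by 0.06 and −0.02 for proteasome, 0.06 and 0.00 for oxidative phosphorylation, and 0.02 and −0.05 for ribosomal genes. The order of the animals was kept there for most genes of these lists. In INPUT 26 of 30 proteasome, 54 of 69 oxidative phosphorylation and 61 of 67 ribosomal genes were higher in replicate 1. Over all genes 6930 of 12822 were higher in replicate 1 in INPUT. The median ELUTED minus WASH difference of proteasome genes was −0.55 and −1.38 in CPEB4 GT/+, against −0.66 and −0.64 in WT. For ribosomal genes it was −0.53 and −1.23 in CPEB4 GT/+, against −0.69 and −0.58 in WT. CPEB4 GT/+ replicate 1 was thus close to WT or slightly above it, and replicate 2 well below. The 2 CPEB4 KO animals, set against the same WT arrays, had median deviations of −0.47 and −0.57 for proteasome and −0.43 and −0.95 for ribosomal genes. CPEB4 GT/+ replicate 2 correlated with the KO ELUTED arrays at r = 0.983 and 0.982, and with WT at 0.976 and 0.976. Quantile normalization gave 6 of 30 proteasome (20.0%), 12 of 69 oxidative phosphorylation (17.4%) and 21 of 67 ribosomal genes (31.3%) lower without overlap. Over all genes 13.4% were lower under that scaling. With aligned arrays 0 genes of these lists were lower, against 0.491% of all genes.

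**Figure D4:**
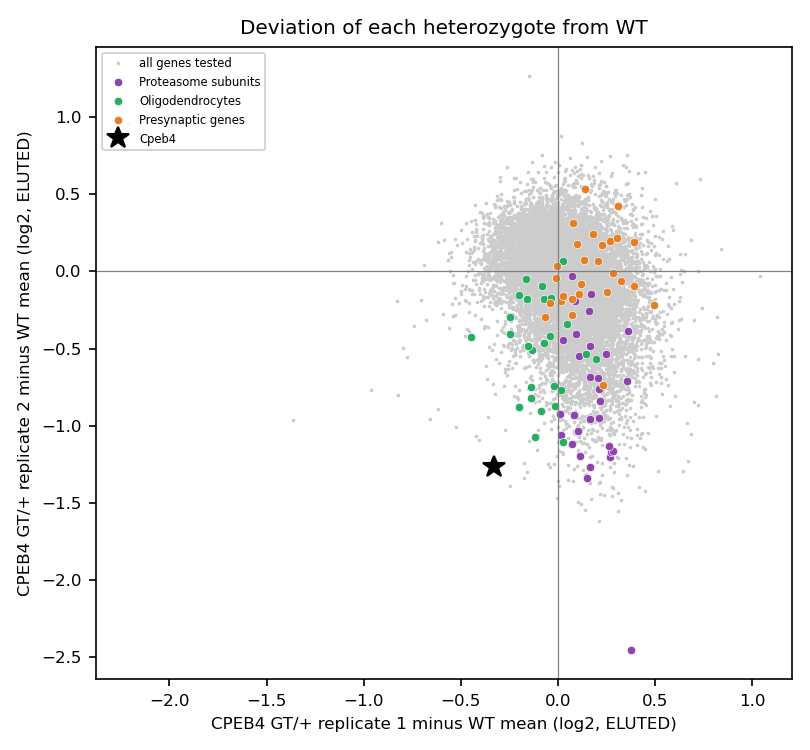
Log2 deviation from the WT ELUTED mean in CPEB4 GT/+ replicate 1 (x) and replicate 2 (y), one point per gene, for all 12822 genes (grey), proteasome subunits (purple), oligodendrocyte genes (green), presynaptic genes (orange) and Cpeb4 (black star). Proteasome genes lie right of 0 and far below 0, oligodendrocyte genes mostly left of 0 and below 0, and Cpeb4 is below 0 in both animals.

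A single animal therefore decided what the test would call. Without CPEB4 GT/+ replicate 1, limma called 499 genes, 486 lower (3.79%) and 13 higher (0.101%), on the assumption that the 1 CPEB4 GT/+ animal left varied as WT and KO animals did. In replicate 1 itself, 382 of those 486 genes lay above both WT arrays, 61 between them and 43 below both. Proteasome, oxidative phosphorylation, oligodendrocyte, translation factor, splicing and ribosomal genes were among the calls. Without replicate 2, 0 genes were called. Cpeb4 was among the calls without replicate 1, at −1.27, and so were H2-D1, at −0.94, and Ugt8a, at −1.08.

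Translation factors and stress genes showed the same spread between the CPEB4 GT/+ animals at smaller size. The shares of all genes without overlap, 13.3% higher and 8.77% lower, are the background of the counts that follow. Translation factors deviated by 0.15 and −0.35, with 4 of 36 higher (11.1%) and 1 lower (2.78%). Eif4e, the cap-binding protein, had 6.25 and 6.49 in CPEB4 GT/+ and 6.05 and 6.02 in WT, a difference of 0.34 (SE 0.15) against −0.12 in INPUT. Genes of the unfolded protein response and ER chaperones, a set in which CPEB4 is known to act in liver, deviated by 0.14 and −0.29, with 3 of 37 higher (8.11%) and 2 lower (5.41%). The largest were Pdia6, a disulfide isomerase, at −0.35, and Calr, the chaperone calreticulin, at 0.28. Hspa5, the main ER chaperone, overlapped, with 8.93 and 7.81 in CPEB4 GT/+ and 8.60 and 8.54 in WT.

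Splicing proteins had 6 of 46 higher and 4 lower (8.70%), close to the 13.3% and 8.77% of all genes, with Srsf2, an SR protein, at −0.53 and Snrpf, a core snRNP protein, at −0.45. Heat shock and stress genes had 3 of 17 higher (17.6%) and 2 lower (11.8%), with Zbtb16 at 0.33 and Sgk1 at −0.32. For these lists with medians just below 0 (translation −0.07, ER −0.05, splicing −0.06 and heat shock −0.07), aligned arrays gave medians just above 0, between 0.05 and 0.07. The median of all genes was then 0.12, so these lists stayed below it, as they did on the deposited values. Immediate early genes had 5 of 29 higher (17.2%) and 1 lower (3.45%), with the nuclear receptor Nr4a1 at 0.30, the scaffold Homer1 at 0.23 and Arc at 0.16. In INPUT these 3 stood at −0.11, 0.01 and −0.00.

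Other cell types gave smaller or mixed counts, beside 13.3% higher and 8.77% lower over all genes. Astrocyte genes had 2 of 26 higher (7.69%) and 6 lower (23.1%), with Slc1a3, a glutamate transporter, at 6.80 and 7.13 in CPEB4 GT/+ and 6.32 and 6.58 in WT, and Gfap, an intermediate filament, at −0.26. Microglia genes had 3 of 18 higher (16.7%) and 2 lower (11.1%), with the receptor Trem2 at −0.33. Endothelial and mural genes had 2 of 22 higher (9.09%) and 6 lower (27.3%), with Rgs5, a pericyte marker, at 0.39 and Cldn5, a tight-junction protein of endothelium, at −0.25. Genes of ependyma, choroid plexus and meninges had 3 of 18 lower (16.7%) and 0 higher, among them the meningeal genes Dcn at −0.41 and Ptgds at −0.40. Of 7 blood genes, 0 separated the groups. With aligned arrays the medians of the astrocyte, ependyma and blood lists were 0.07, 0.08 and 0.08. These lay above 0 but below the all-gene median of 0.12 under that scaling. The endothelial and mural list then had 4 higher (18.2%) and 0 lower, beside 24.2% and 0.491% of all genes. Its median was −0.01, against −0.13 as deposited, and relative to all genes it was −0.12 under both scalings. Without CPEB4 GT/+ replicate 2 its median was 0.05, against 0.05 over all genes.

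The second test asked whether the ELUTED difference was another than the INPUT difference of the same animals. For each animal the INPUT level was subtracted from the ELUTED level. Again 0 of 12822 genes had an adjusted p under 0.05 in limma (0.0% higher and 0.0% lower). At an unadjusted p under 0.05 there were 188 genes (1.47%), 85 higher (0.663%) and 103 lower (0.803%). Without overlap there were 1841 higher (14.4%) and 1346 lower (10.5%), of which 12 (0.0936%) and 42 (0.328%) differed by at least 0.58.

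Syndig1l led the higher genes at 0.87 (SE 0.19), with ELUTED minus INPUT values of 0.65 and 1.04 in CPEB4 GT/+ and −0.07 and 0.02 in WT. Both CPEB4 GT/+ animals were well above both WT animals. Zfp280d, a zinc finger gene, followed at 0.68 (SE 0.18), with 0.65 and 0.64 in CPEB4 GT/+ and −0.20 and 0.12 in WT, and Nudt5, a nucleotide hydrolase gene, at 0.60. These values rest on 1 probe set each. The second Zfp280d probe set went the other way, with differences of −0.11 in ELUTED and 0.24 in INPUT, and so did that of Nudt5, below the floor, with 0.03 and 0.22. On the lower side, Gm527, a predicted gene, was at −0.77 (SE 0.18), with −1.17 and −1.06 in CPEB4 GT/+ and −0.50 and −0.18 in WT. For this gene the INPUT level itself was higher in CPEB4 GT/+, by 0.54. Dhrs7b, a dehydrogenase gene, and Fam76b were at −0.61 and −0.59. Their INPUT levels were also higher in CPEB4 GT/+, by 0.46 and 0.53, while their ELUTED differences were −0.15 and −0.05. Another Fam76b probe set above the floor gave −0.01 in ELUTED and 0.09 in INPUT.

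Last, the neighbourhood of Cpeb4 was read, because an allele kept in heterozygotes travels with linked sequence. The 8 tested genes on each side of Cpeb4 in the RefSeq order, chosen after the values were seen, had 3 higher and 2 lower of 16 without overlap, beside 13.3% and 8.77% of all genes. Their differences ran from −0.45 to 0.35 with a median of −0.06, and 0 of 16 had an unadjusted p under 0.05 in limma. Cpeb4 lay outside that range.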

How the data were processed

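Total RNA and the WASH and ELUTED fractions of 6 animals were amplified, labelled with biotin and hybridised to 18 arrays, per the labels' protocols. The deposited values are log2 levels for which the submitters' processing notes name RMA, with the version not given in the sources used here. RMA equalises the arrays, and the total amount of long-tail RNA per animal is lost in it. Of 45141 probe sets, 28898 carry 1 gene symbol in the platform annotation. The probe set with the highest mean over 18 arrays stood for its gene, and the lowest 25% of genes by that mean were left out (floor 5.52, near the highest mean of nonspecific controls, 5.61).

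Genotype means were fitted to the 6 ELUTED arrays, and to ELUTED minus INPUT per animal, with limma 3.58.1 (a linear model with moderated variances) in R 4.3.3, two-sided, with Benjamini-Hochberg adjustment over 12822 genes. The design leaves 3 residual degrees of freedom, the smallest p that an exact test of 2 against 2 can give is 0.333, and the number of arrays limits the precision. On simulated data of 12822 genes the first fit called 89 of 100 genes set to differ by 1 on the log2 scale. It called 100 of 100 set to differ by 2, with 12 false calls. The simulated noise was independent, with the same spread for all genes and arrays. The real CPEB4 GT/+ ELUTED arrays differed from each other more than the WT arrays did. The simulated counts therefore check the fit and do not give its power on the real arrays.

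Named genes are Cpeb4, the 12 genes in each direction (fewer where fewer qualify) with the smallest unadjusted p that have no overlap and differ by at least 0.58, up to 2 members per list with the largest difference among those with no overlap, and up to 3 each way by the same rule for ELUTED minus INPUT. Further genes are named from the lists for their role or chosen after their values were seen. The comparison, the 23 gene lists and the naming rule were chosen with earlier results of these data known. Replicate numbers were not taken to pair the animals. The ELUTED differences of replicate 1 minus replicate 2 correlated across genes at −0.171 between CPEB4 GT/+ and WT. The correlation was 0.225 between CPEB4 GT/+ and CPEB4 KO, and −0.066 between WT and CPEB4 KO. Such values cannot show whether the numbers mark animals handled together. Alternatives covered the samples fitted, the replicate block, the floor, the probe set rule, the scaling and each animal left out.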

Additional observations from a re-analysis of the deposited data

How the results depend on the processing

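For ELUTED, CPEB4 GT/+ minus WT, 0 genes were called under every alternative tried except without CPEB4 GT/+ replicate 1, so that leaving out 1 animal at a time gave 0 to 499 calls. For ELUTED minus INPUT, 0 genes were called under all of its alternatives. In the same order of comparisons, unadjusted p under 0.05 was reached by 114 and 188 genes, by 122 and 167 with the replicate block, and by 13 to 2978 and 66 to 1959 with 1 animal left out. Whether the replicate numbers pair the animals was not settled. With crossed pairing, chosen after seeing the data, 0 genes were called and 164 had an unadjusted p under 0.05. Other counts at an unadjusted p for ELUTED were 60 with the 4 arrays alone, 448 with all 18 arrays and the animal as a random block, 197 with no floor, 60 with the lowest 50% left out, 142 with the mean of probe sets, 128 with centred arrays, 160 with quantile normalization, 76 with aligned arrays and 118 with an intensity trend. For ELUTED minus INPUT, aligned arrays gave 13, no floor 281, the lowest 50% left out 103 and WASH as the denominator 115. Under the alternatives 8 of 49 named genes passed the threshold, all of them without CPEB4 GT/+ replicate 1. These 49 genes were chosen for having no overlap, so leaving out an animal could not turn their direction. What made that replicate differ was not tested.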
